A study of Homo sapiens with 6 samples.

Results

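The genes of glycolysis, lactate handling and the pentose phosphate pathway were examined in U251, an established human glioblastoma line grown in high-glucose medium with serum. The group was chosen by gene name and held 36 of the 58735 genes in the table, and all 36 were found. RNA-seq was performed on cells given sterile deionized water (NC group, n = 3) and on cells given recombinant human tumor necrosis factor-α at 10 ng/mL for 24 h (TNF-α group, n = 3). The labels name no genetic change in either group, each group had 3 independent biological replicates, and only this line was sequenced here, so the results hold for U251 alone. All levels are FPKM as deposited, that is fragments scaled to gene length and to a library total. In RNA from a whole culture, a change in every cell and a change in some of the cells cannot be told apart.

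Glycolysis splits glucose into pyruvate and yields ATP without oxygen. Many tumor cells, glioblastoma cells among them, turn much of this pyruvate into lactate and export it even when oxygen is present. The pentose phosphate pathway branches off at glucose 6-phosphate and supplies NADPH, which fatty acid synthesis consumes, and ribose for nucleotides. TNF-α acts through its receptors on the transcription factor NF-kB, and the study asked how a low dose of it alters lipid metabolism in these cells.

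The glial and glioma markers VIM (325 to 974 FPKM), CD44 (133 to 141), NES (40.8 to 69.2), SOX2 (22.6 to 66.3), SOX9 (23.5 to 52.0) and GFAP (1.58 to 9.47) were detected in all 6 libraries, while S100B stayed between 0 and 0.168 FPKM. Markers of leukocytes (PTPRC) and myelin (MOG) were at 0 reads throughout, and no other marker of a foreign cell type exceeded 0.811 FPKM. The reads in genes, recovered as whole numbers from FPKM and gene length, numbered from 31992167 to 37897044 per library. TNF-α replicates 2 and 3 stood apart from the other 4 libraries. The share of reads on genes above 8 kb was 16.6% and 17.9% in this pair and 28.8% to 29.1% elsewhere, and that on genes of cytosolic ribosomal proteins was 8.11% and 6.96%, with 2.90% to 3.22% elsewhere. The library total behind the FPKM was 0.693 and 0.759 of the recovered reads in this pair and 0.925 to 0.959 elsewhere. This raises every FPKM value of the pair relative to its share of the reads. The summed FPKM of all genes was 463340 and 408175 in the pair and 256373 to 266716 elsewhere. A fit on GC content and gene length took up 35.2% and 34.0% of the variance among their log2 ratios to NC, 1.33% for TNF-α replicate 1, and from 3.31% to 16.8% for NC. No NC library shared this composition, so in these 2 libraries it and the treatment cannot be told apart, and values by library are given below for the genes described in full.

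One promoter is shown for the gene with the clearest change and one for the gene that was lower in all TNF-α libraries and carried an NF-kB match. They are the 300 bases from 250 before to 50 after a RefSeq transcript start on GRCh38.p14, written 5′ to 3′. The first belongs to SLC2A6, which encodes the glucose transporter family member GLUT6, at chr9:133479050-133479349 on the minus strand. Capitals mark the hypoxia response core, ACGTG or GCGTG on either strand.
SLC2A6: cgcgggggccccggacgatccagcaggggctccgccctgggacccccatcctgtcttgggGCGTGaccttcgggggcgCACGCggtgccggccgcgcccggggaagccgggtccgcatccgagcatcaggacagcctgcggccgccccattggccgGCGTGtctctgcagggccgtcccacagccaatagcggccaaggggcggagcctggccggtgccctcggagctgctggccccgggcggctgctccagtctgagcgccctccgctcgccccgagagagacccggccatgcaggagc
The second belongs to PFKFB3, which encodes an enzyme that makes the glycolytic activator fructose 2,6-bisphosphate. It lies at an internal start of the gene, at chr10:6202682-6202981 on the plus strand, and its capitals mark the E-box CACGTG, which contains the hypoxia core, and a match to the NF-kB consensus.
PFKFB3: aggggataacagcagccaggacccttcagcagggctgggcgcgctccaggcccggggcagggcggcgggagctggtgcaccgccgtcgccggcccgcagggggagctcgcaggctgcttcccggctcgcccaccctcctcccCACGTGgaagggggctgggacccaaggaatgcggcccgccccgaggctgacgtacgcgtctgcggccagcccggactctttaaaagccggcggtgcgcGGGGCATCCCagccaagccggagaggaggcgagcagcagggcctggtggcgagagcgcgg

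The SLC2A6 window held 3 hypoxia cores and neither an E-box nor an NF-kB match, which says only that these letters are absent from this window. In the PFKFB3 window shown, the NF-kB match began 10 bases before the start (position -10) and the E-box at -108. The other PFKFB3 window, at chr10:6144671-6144970, held neither. A promoter of this kind was found for 33 of the 36 genes, as 61 windows. A hypoxia core was present in at least 1 window of 27 of the 33 genes (81.8%), against 52.4% of all 27305 genes with a window. An E-box was present for 7 genes (21.2% against 8.77% of all genes), namely ALDOA, ALDOC, GAPDH, HK2, LDHA, PDK2 and PFKFB3. An NF-kB match was present for PDHA1, PFKFB3 and PFKM (9.09% against 7.09%). Genes differ in their number of windows, so a count by gene favours genes with more of them. By window, 37 of the 61 held a hypoxia core, 7 an E-box and 4 an NF-kB match. The shares over all 35116 windows were 48.4%, 7.26% and 5.91%. A match of letters is no binding site.

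The levels in the NC group spanned more than 3 orders of magnitude, as the plot of NC levels shows. GAPDH, which oxidizes glyceraldehyde 3-phosphate, was the highest at 821 ± 49.5 FPKM (mean ± SD, n = 3) and ranked 23 among all genes of the table. ENO1, the main enolase, had 714 ± 32.5 FPKM and PKM, the pyruvate kinase that makes the last ATP of the pathway, had 623 ± 21.3 FPKM. The ranges of GAPDH, ENO1 and PKM did not overlap. TPI1 (299 ± 9.19), PGAM1 (229 ± 8.09), TKT (149 ± 12.7), SLC2A1 (147 ± 5.74) and PGK1 (138 ± 1.37) followed, of which the ranges of TKT and SLC2A1, and of TKT and PGK1, overlapped. In all, 8 genes had at least 100 FPKM, 17 had 10 to 100, 8 had 1 to 10 and 3 had less than 1. The 4 highest genes held 66.3% of the summed NC level of the 36.

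**Figure D1:**
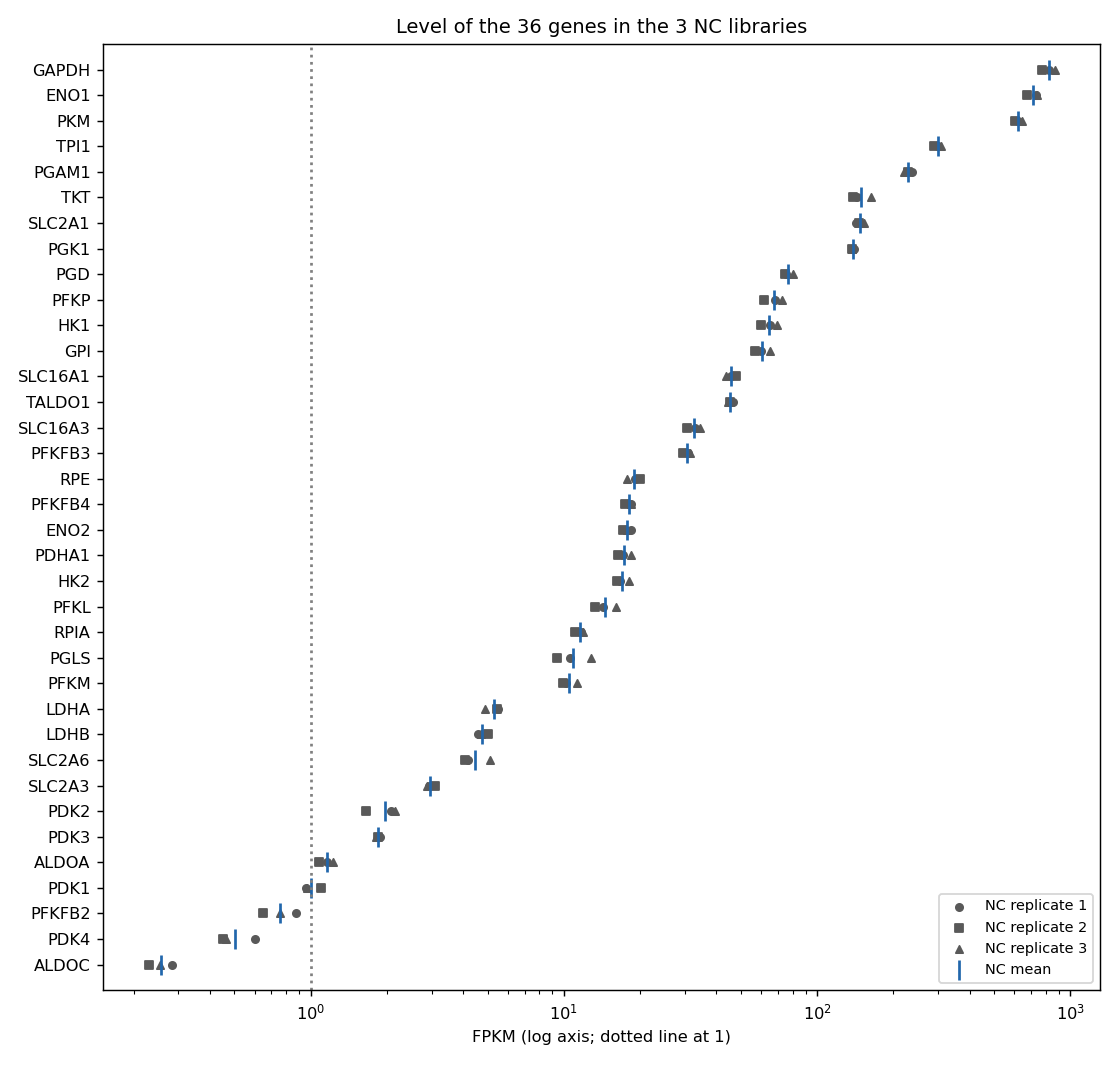
Level of each of the 36 genes in FPKM (log axis) in the 3 NC libraries, with the NC mean as a vertical mark and a dotted line at 1 FPKM. The genes run from ALDOC at 0.256 to GAPDH at 821 FPKM, and LDHA and LDHB lie near 5.

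Some genes of central steps had low levels in this table. LDHA, which reduces pyruvate to lactate, had 5.27 ± 0.35 FPKM and ranked 7036, on 837 to 1234 reads per library. Its partner LDHB had 4.77 ± 0.229 FPKM. ALDOA, the main aldolase of most tissues, had 1.16 ± 0.0710 FPKM on 131 to 211 reads. For ALDOA, exons of another gene covered 53.5% of the exonic length, and 48.1% of its 50-base stretches also occurred in transcripts of other genes. These shares were 33.4% and 29.4% for LDHB, 0 and 4.03% for LDHA. The 6 LDHA pseudogenes held at most 1.32% of the reads that fell on LDHA and its pseudogenes together. How reads with several matches were counted was not given in the sources used here, and its part in these levels was not tested. The values of ALDOA and LDHB are uncertain for this reason, as are those of PDK2 (38.6% exonic overlap), RPE (23.8%), PDHA1 (21.3%), GAPDH (14.2%) and ALDOC (10.1%). PGAM1, SLC2A3 and TPI1 shared 30.7%, 16.1% and 12.6% of their 50-base stretches with other genes. The cause of the low LDHA level was not tested, and that level may also be understated.

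To determine which genes TNF-α altered, log2(FPKM + 1) was compared between the groups for genes with at least 1 FPKM in at least 3 libraries, with a linear model (limma) over all 12136 such genes. Of the 36 genes, 32 were tested, and PFKFB2, ALDOC, PDK1 and PDK4 were too low. A single gene, SLC2A6, passed an adjusted p of 0.05, which is 3.12% of the 32 against 1.01% of all genes tested (0.717% higher and 0.297% lower). None passed in the lower direction, also by limma-voom on the recovered reads. Without adjustment, p was under 0.05 for SLC2A6 and TALDO1, which were higher, and for PFKFB3, which was lower, that is 3 of 32 against 24.2% of all genes. The groups did not overlap in 5 of the 32 genes (15.6%), against 30.1% of all genes. These were SLC2A6, RPIA and TALDO1, which were higher, and SLC2A1 and PFKFB3, which were lower. The median log2 fold change of the 32 was 0.32, against 0.04 over all genes tested, and 23 were above 0, a number that was 11 with TPM, where the median of all genes was -0.42, and 17 with quantile normalization.

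That median differed between the treated libraries. Relative to the NC mean, the 32 genes had median log2 ratios of -0.06, 0.61 and 0.52 in TNF-α replicates 1, 2 and 3, against -0.05 to 0.05 in the NC libraries. Replicates 2 and 3 had the same sign in 30 of the 32 genes, and replicate 1 had the opposite sign to both in 20. In replicate 1, 15 genes lay below every NC library (46.9%, against 34.3% of all genes) and 5 above every NC library (15.6% against 30.5%). In replicate 2, 6 lay below (18.8% against 43.6%) and 23 above (71.9% against 49.3%), and in replicate 3, 6 lay below (18.8% against 43.6%) and 24 above (75.0% against 48.5%). The summed level of the 36 genes was 3720, 3553 and 3842 FPKM in NC and 3478, 7538 and 6536 FPKM in TNF-α, and their share of the reads was 1.82%, 1.76% and 1.84% against 1.67%, 2.65% and 2.50%. As a share of the summed FPKM of all genes, which does not depend on the library total, the 36 genes held 1.39% to 1.44% in NC and 1.3%, 1.63% and 1.6% in TNF-α. When TNF-α replicate 1 was left out, 22 of the genes passed in the higher and 4 in the lower direction, but 79.4% of all genes passed in that setting. When replicates 2 and 3 were left out instead, a setting chosen after seeing the data in which the single treated library is assumed to vary like the NC libraries, SLC2A6 alone of the 32 genes passed, where 6.03% of all genes did, and the median was -0.06.

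**Figure D2:**
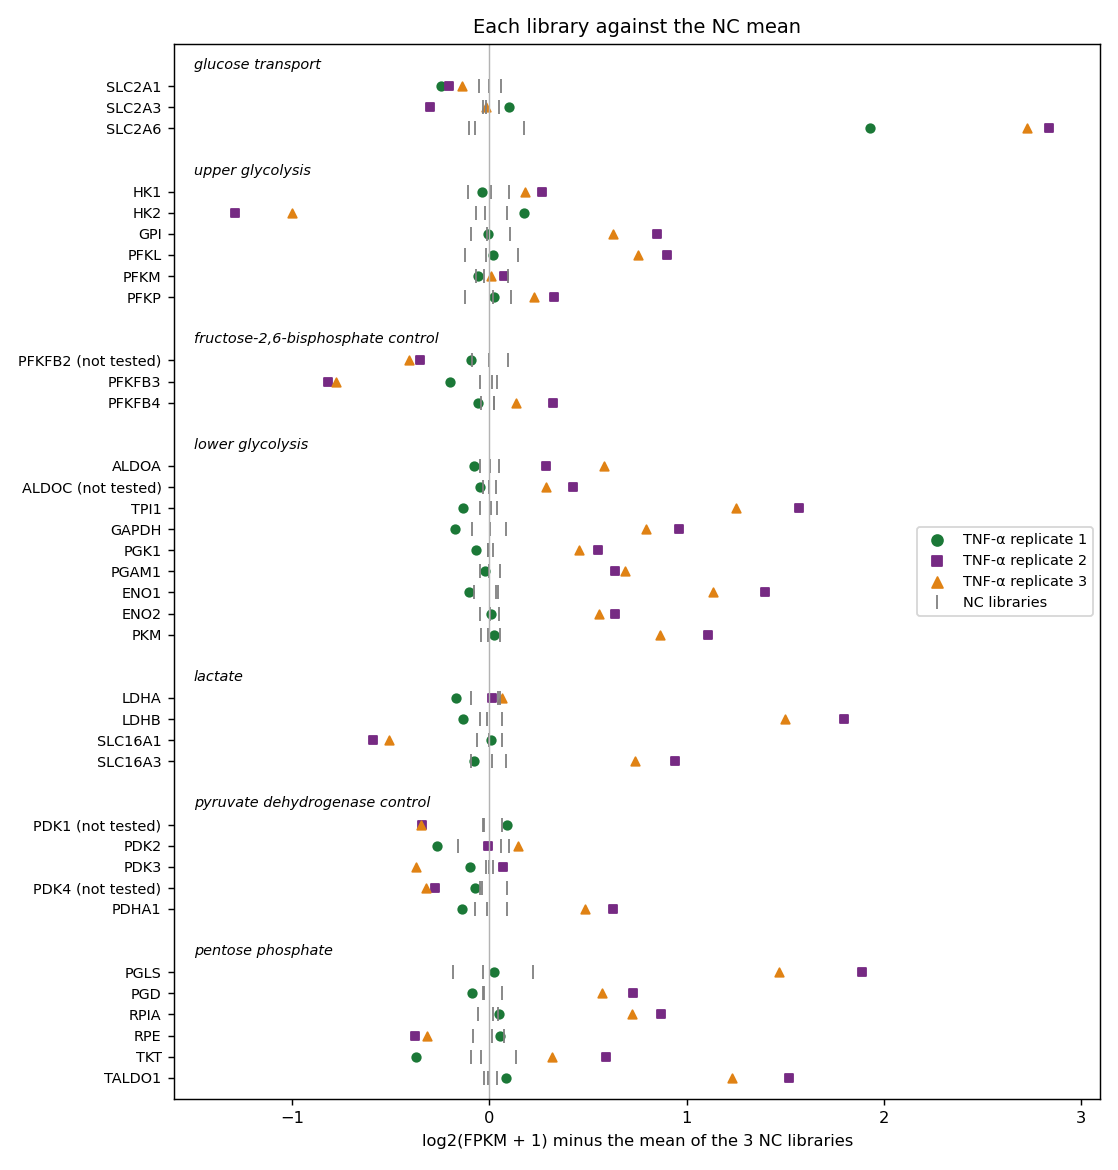
Difference of log2(FPKM + 1) from the NC mean for each of the 36 genes, grouped by role. Circles, squares and triangles are TNF-α replicates 1, 2 and 3 and grey marks are the 3 NC libraries. SLC2A6 lies at 1.93, 2.84 and 2.73, while for most other genes replicate 1 lies near the NC marks and replicates 2 and 3 lie to one side.

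Among the glucose transporters, SLC2A6 rose and the other tested genes did not pass. SLC2A6 (ENSG00000160326, chromosome 9, 133471095 to 133479137, GRCh38), whose product GLUT6 resides largely on intracellular membranes, had levels of 4.17, 4.06 and 5.13 FPKM without TNF-α and of 19.7, 37.8 and 35.0 FPKM with it. Every treated library lay far above every control, replicate 1 included, at 4.43, 8.50 and 7.86 times the NC mean. The log2 fold change was 2.50 (SE 0.26, 95% interval 1.87 to 3.13, n = 3 per group) with a limma adjusted p of 0.0154. It rested on 471 to 583 reads in the NC libraries and 2244 to 3472 in the TNF-α libraries, and no exon of another gene overlapped it. With GC and length corrected the log2 fold change was 1.93 (adjusted p 0.000287). From TNF-α replicate 1 alone against NC, a setting chosen after seeing the data and without spread among treated libraries, it was 1.93. When 1 library was left out, the log2 fold change lay between 2.33 and 2.78. The adjusted p was then 0.137, 0.141 and 0.125 without NC replicates 1, 2 and 3, and 0.0545 and 0.109 without TNF-α replicates 2 and 3. Without TNF-α replicate 1 it was 5.87e-06, in a setting where 79.4% of all genes passed. SLC2A1 (ENSG00000117394, chromosome 1, 42925375 to 42959176), the main glucose importer GLUT1, had 142, 147 and 153 FPKM in NC and 124, 127 and 134 FPKM in TNF-α. All 3 treated libraries lay below all controls, by a log2 fold change of -0.20 (SE 0.15, interval -0.55 to 0.15, adjusted p 0.316) that did not pass. SLC2A3, the high-affinity transporter of neurons, was at 2.97 ± 0.116 and 2.80 ± 0.529 FPKM, with overlapping groups.

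**Figure D3:**
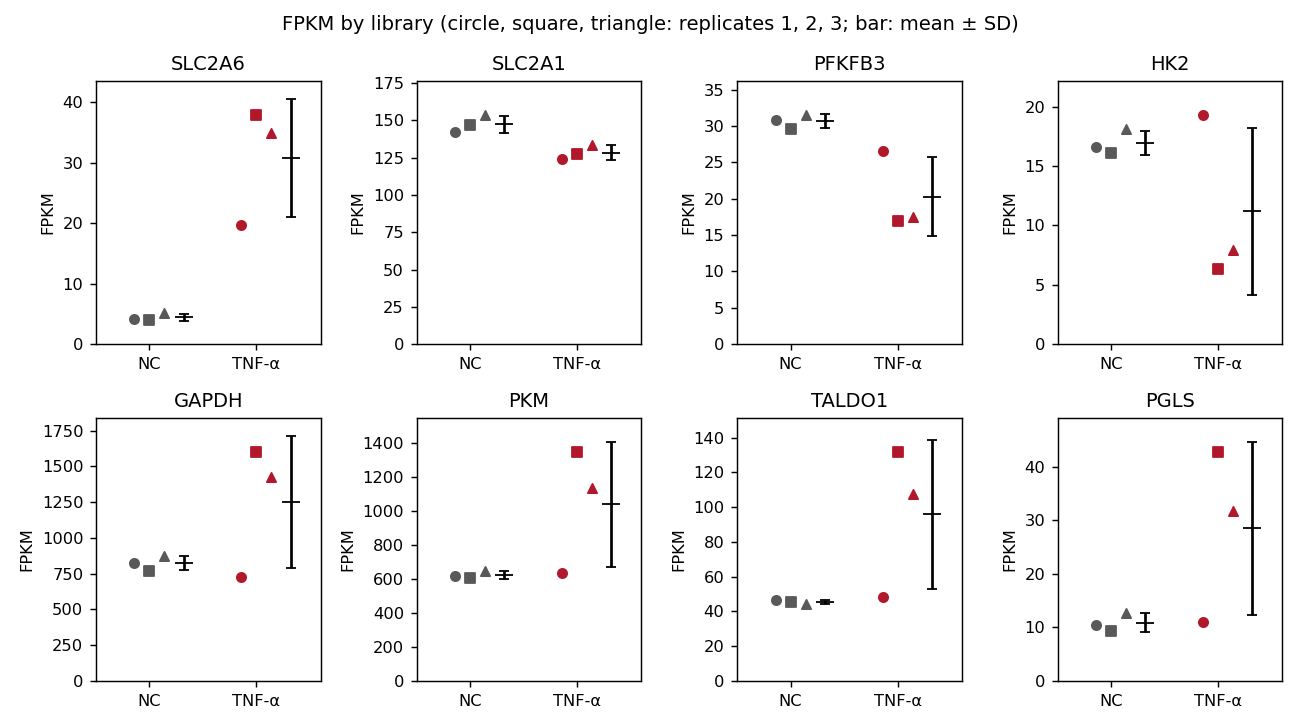
FPKM of 8 genes by library, with circles, squares and triangles for replicates 1, 2 and 3 and a bar for the mean ± SD of each group (n = 3). SLC2A6 is higher and SLC2A1 and PFKFB3 are lower in all TNF-α libraries, HK2 is lower in replicates 2 and 3 alone, and GAPDH, PKM, TALDO1 and PGLS are high in replicates 2 and 3 with replicate 1 near the controls.

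In the upper part of glycolysis, where glucose is phosphorylated and committed, none of the 6 genes passed. HK2, the inducible hexokinase of many tumors, had 16.6, 16.1 and 18.1 FPKM in NC and 19.3, 6.32 and 7.95 FPKM in TNF-α. Replicate 1 thus lay above all controls and the other two lay far below them, at 0.373 and 0.469 of the NC mean. The log2 fold change was -0.71 (SE 0.38, adjusted p 0.211). Without TNF-α replicate 1, where 79.4% of all genes passed, it was -1.15 (adjusted p 3.93e-05), and from replicate 1 alone it was 0.18. HK1, the constitutive hexokinase, had 64.7 ± 4.71 and 71.4 ± 7.63 FPKM. GPI, which converts glucose 6-phosphate to fructose 6-phosphate, had 60.1, 56.8 and 65.2 FPKM in NC and 60.3, 110.0 and 94.3 FPKM in TNF-α, with a log2 fold change of 0.49 (SE 0.25, adjusted p 0.2). Of the phosphofructokinase subunits, which catalyse the committed step, PFKL had 14.3, 13.2 and 16.1 FPKM in NC and 14.7, 27.9 and 25.1 FPKM in TNF-α (log2 fold change 0.56, SE 0.25, adjusted p 0.195). Replicate 1 lay within the NC range in both. PFKP (0.19) and PFKM (0.01) had smaller differences. Without TNF-α replicate 1, again beside 79.4% of all genes, the adjusted p was 0.000274 for GPI, 0.000156 for PFKL, 0.0237 for PFKP and 0.0423 for HK1.

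The PFKFB enzymes set the level of fructose 2,6-bisphosphate, the strongest activator of phosphofructokinase. PFKFB3 (ENSG00000170525, chromosome 10, 6144934 to 6254644), the isoform with the highest kinase activity, had 30.9, 29.6 and 31.5 FPKM in NC and 26.5, 16.9 and 17.4 FPKM in TNF-α. All treated libraries lay below all controls. Its log2 fold change was -0.60 (SE 0.20, interval -1.08 to -0.12) with an unadjusted p of 0.0218 and an adjusted p of 0.195, so it did not pass. The difference became -0.80 (adjusted p 3.09e-05) without TNF-α replicate 1, where 79.4% of all genes passed, and -0.20 from replicate 1 alone. PFKFB4 had 18.4, 17.5 and 18.3 FPKM in NC and 17.3, 22.8 and 19.9 FPKM in TNF-α (log2 fold change 0.13, SE 0.14, adjusted p 0.484). Without TNF-α replicate 1, again beside 79.4% of all genes, its adjusted p was 0.0307. PFKFB2, too low to be tested, had 0.758 ± 0.111 and 0.448 ± 0.174 FPKM, on 80 to 321 reads. All treated libraries lay below all controls, but replicate 1 only just, at 0.647 FPKM (212 reads) against 0.649 FPKM (217 reads) in NC replicate 2.

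In the lower part, from aldolase to pyruvate kinase, the 8 tested genes had log2 fold changes with a median of 0.48, all 8 above 0 and none past the threshold. By library, the median ratio to NC on the log2 scale was -0.07, 0.80 and 0.74 in TNF-α replicates 1 to 3. PKM had 619, 604 and 646 FPKM in NC and 632, 1345 and 1136 FPKM in TNF-α, with a log2 fold change of 0.67 (SE 0.32, interval -0.11 to 1.44, adjusted p 0.197). GAPDH, often used as a reference gene, had 823, 771 and 870.0 FPKM in NC and 726, 1599.8 and 1423 FPKM in TNF-α. Replicate 1 lay below all controls at 0.884 of the NC mean and the others at 1.95 and 1.73 of it, and the log2 fold change of 0.53 (SE 0.34, adjusted p 0.268) was -0.19 with quantile normalization and 0.07 with GC and length corrected. ENO2, the neuronal enolase, had 18.4, 17.1 and 17.8 FPKM in NC and 17.8, 28.2 and 26.6 FPKM in TNF-α (log2 fold change 0.40, SE 0.20, adjusted p 0.198). The log2 fold changes of TPI1 (0.90), ENO1 (0.81), PGAM1 (0.43), PGK1 (0.31) and ALDOA (0.26) had adjusted p-values from 0.2 to 0.301, and in each of the 5 replicate 1 lay below the NC mean. Directions here depended on the scaling, since PGK1, PGAM1, ENO2 and ALDOA were below 0 with TPM and GAPDH, PGK1, PGAM1 and PKM with quantile normalization. Without TNF-α replicate 1, all 8 passed, in a setting where 79.4% of all genes did, with adjusted p-values from 2.28e-05 (TPI1) to 0.0106 (ALDOA). ALDOC, the brain aldolase, had 0.256 ± 0.0272 and 0.477 ± 0.241 FPKM on 20 to 52 reads and was not tested.

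Lactate is made from pyruvate by lactate dehydrogenase and leaves the cell through the monocarboxylate transporters. LDHA had 5.50, 5.45 and 4.87 FPKM in NC and 4.57, 5.31 and 5.55 FPKM in TNF-α, so the groups overlapped, and its log2 fold change was -0.03 (SE 0.13, interval -0.34 to 0.27, adjusted p 0.85). LDHB had 4.57, 5.02 and 4.71 FPKM in NC and 4.25, 19.1 and 15.3 FPKM in TNF-α. Its replicate 1 lay below all controls and the other libraries were at 4.0 and 3.21 times the NC mean, with a log2 fold change of 1.05 (SE 0.49, adjusted p 0.196). SLC16A3, the exporter MCT4 of glycolytic cells, had 32.9, 30.5 and 34.5 FPKM in NC and 30.8, 63.4 and 55.0 FPKM in TNF-α (0.53, SE 0.28, adjusted p 0.208). SLC16A1, the widely expressed MCT1, had 45.6, 47.8 and 43.6 FPKM in NC and 45.8, 30.0 and 31.8 FPKM in TNF-α (-0.36, SE 0.19, adjusted p 0.212). Its replicate 1 lay within the controls and the others below them. Without TNF-α replicate 1 the adjusted p was 1.29e-05 for LDHB, 0.000103 for SLC16A3 and 0.000309 for SLC16A1, and 0.663 for LDHA. In that setting 79.4% of all genes passed.

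Pyruvate dehydrogenase admits pyruvate to the mitochondrial citric acid cycle, and the PDK kinases switch it off. PDHA1, its catalytic subunit, had 17.0, 16.3 and 18.3 FPKM in NC and 15.5, 27.05 and 24.4 FPKM in TNF-α (log2 fold change 0.32, SE 0.22, adjusted p 0.288). Without TNF-α replicate 1, where 79.4% of all genes passed, its adjusted p was 0.000501. The 4 kinases had low levels. PDK1, a hypoxia-induced kinase, had 0.958, 1.09 and 0.966 FPKM in NC and 1.14, 0.583 and 0.576 FPKM in TNF-α on 208 to 543 reads, and it was not tested. PDK3 had 1.88, 1.84 and 1.81 FPKM in NC and 1.66, 1.98 and 1.20 FPKM in TNF-α (-0.13, SE 0.15, adjusted p 0.483). PDK2 (1.96 ± 0.276 and 1.89 ± 0.404 FPKM) had overlapping groups. PDK4, which was not tested, had 0.505 ± 0.0829 and 0.289 ± 0.121 FPKM on 22 to 98 reads. Its groups did not overlap, but TNF-α replicate 1 (62 reads) lay close to NC replicate 2 (67 reads), at 0.427 against 0.452 FPKM.

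In the pentose phosphate pathway the oxidative enzymes make NADPH and the others rearrange sugars. The median log2 fold change was 0.48 over 6 genes, 5 of them above 0, while TNF-α replicates 1 to 3 had median log2 ratios of 0.04, 0.80 and 0.65. TALDO1 (ENSG00000177156, chromosome 11, 747329 to 765024), the transaldolase that links the pathway back to glycolysis, had 46.5, 45.2 and 44.4 FPKM in NC and 48.1, 132 and 108 FPKM in TNF-α. Replicate 1 exceeded the highest control only slightly, at 1.06 of the NC mean, against 2.91 and 2.37 in the others. Its log2 fold change was 0.94 (SE 0.37, interval 0.04 to 1.84, unadjusted p 0.0424, adjusted p 0.195). PGLS, the second oxidative enzyme, had 10.5, 9.39 and 12.8 FPKM in NC and 11.0, 42.8 and 31.7 FPKM in TNF-α, with a log2 fold change of 1.13 (SE 0.47, adjusted p 0.195) that was 0.51 with GC and length corrected. TKT, the transketolase, had 144, 139 and 163 FPKM in NC and 114, 224 and 185 FPKM in TNF-α. Its replicate 1 was the lowest of all 6 libraries and the others were the highest, with a log2 fold change of 0.18 (SE 0.28, adjusted p 0.618), -0.32 with TPM and -0.46 with quantile normalization. PGD, the NADPH-forming phosphogluconate dehydrogenase, had 76.6 ± 2.90 and 105 ± 29.1 FPKM, and RPE, an epimerase, 18.9 ± 1.08 and 16.3 ± 2.89. RPIA, an isomerase, had 11.7, 11.04 and 11.9 FPKM in NC and 11.97, 21.9 and 19.7 FPKM in TNF-α, so that replicate 1 only just exceeded the highest control (0.55, SE 0.23, adjusted p 0.195). Without TNF-α replicate 1 all 6 passed, again beside 79.4% of all genes, with adjusted p-values from 1.77e-05 (TALDO1) to 0.00669 (TKT).

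Shares within isoenzyme groups do not change with the library total and were compared for 8 groups by an exact two-sided permutation test, which cannot go below 0.1 with 3 against 3 libraries. They were not corrected for GC content and gene length, which differ between genes of a group. SLC16A3 had 65.6% GC and 8995 bases, and SLC16A1 had 44.9% GC and 5312 bases. PFKFB3 made up 61.6%, 62.0% and 62.2% of the summed PFKFB level in NC and 59.6%, 42.2% and 46.3% in TNF-α. This was the only one of the 8 shares whose groups did not overlap (difference of means -12.6 percentage points, exact p 0.1, adjusted p 0.533 over the 8). HK2 made up 20.4% to 21.2% of HK1 and HK2 in NC and 23.4%, 7.51% and 9.77% in TNF-α (exact p 0.4). LDHB made up 45.4% to 49.2% of LDHA and LDHB in NC and 48.2%, 78.2% and 73.4% in TNF-α (exact p 0.2), and SLC16A3 39.0% to 44.2% of SLC16A1 and SLC16A3 in NC and 40.2%, 67.9% and 63.4% in TNF-α (exact p 0.3). In the LDHB and SLC16A3 shares replicate 1 lay within the controls, and in the HK2 share it lay above them while replicates 2 and 3 lay below. The shares of PFKP, ENO2, ALDOC and SLC2A3 had exact p-values from 0.4 to 0.7.

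**Figure D4:**
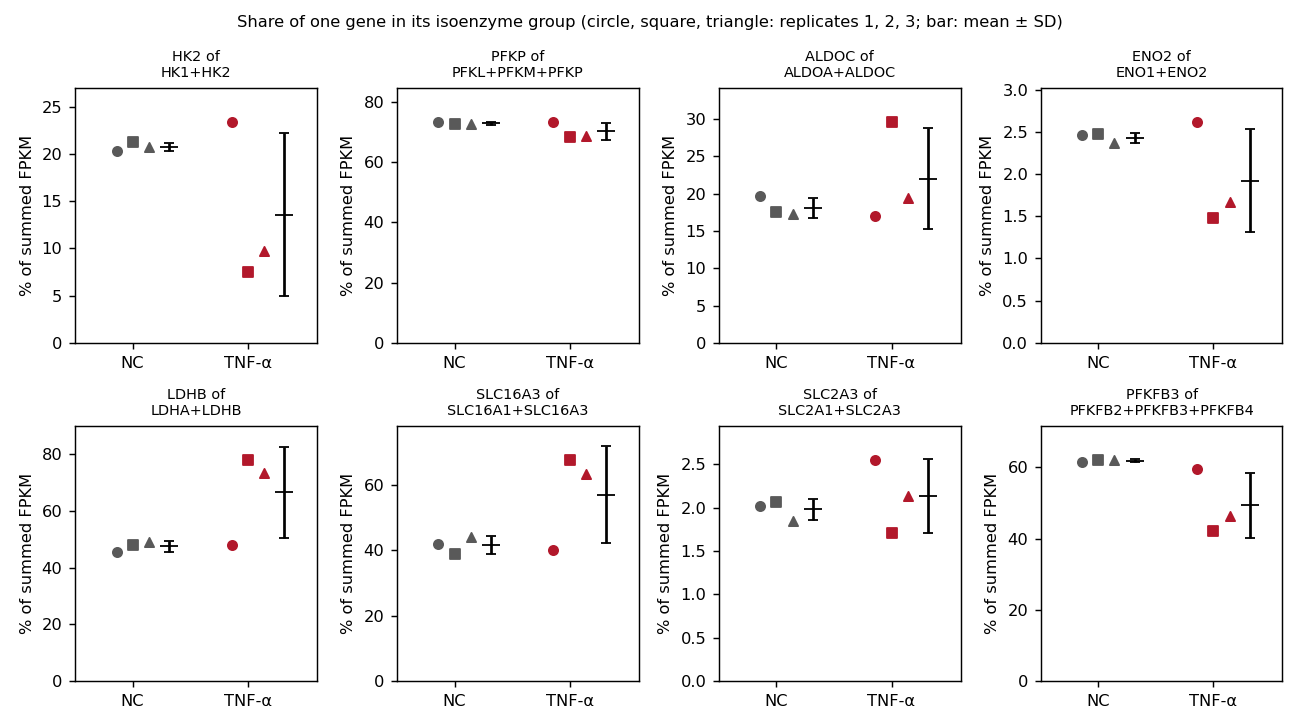
Share of 1 gene in the summed FPKM of its isoenzyme group, in percent, for 8 groups, with symbols for replicates 1, 2 and 3 and a bar for the mean ± SD (n = 3). The PFKFB3 share is lower in all TNF-α libraries, and the LDHB and SLC16A3 shares are high in TNF-α replicates 2 and 3 alone.

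Other genes of these pathways, 107 in 7 lists, were examined beside the 36. Of these, 64 were tested and none passed by limma or by limma-voom, against 1.01% of all genes, and by limma without adjustment 9 higher and 12 lower genes had p under 0.05, where 12.3% of all genes were higher and 11.9% lower. The numbers tested and the median log2 fold changes were 3 and 0.51 for other hexose and lactate transporters, 8 and 0.03 for other isoenzymes and side steps of glycolysis, 4 and 0.41 for gluconeogenesis, 9 and -0.33 for pyruvate entry and pyruvate dehydrogenase, 6 and 0.09 for other pentose phosphate genes, 19 and 0.01 for regulators, and 15 and 0.06 for hypoxia targets outside glycolysis. A median near 0 covers genes of both directions. Of the regulators 10 were above 0 and 9 below, and of the hypoxia targets 9 were above and 6 below. HIF1A, the oxygen-regulated activator of many glycolytic genes, had 90.3, 95.1 and 89.4 FPKM in NC and 91.0, 35.4 and 45.8 FPKM in TNF-α (-0.78, SE 0.34, adjusted p 0.195), so that its replicate 1 lay within the controls. MYC, another activator of these genes, was higher in all 3 treated libraries, at 34.9, 30.2 and 33.1 FPKM against 21.9, 21.9 and 23.6 (0.52, SE 0.13, adjusted p 0.164). TXNIP, which restrains glucose uptake, was lower in all 3, at 27.2, 19.4 and 26.3 FPKM against 35.2, 39.7 and 36.03 (-0.60, SE 0.17, adjusted p 0.195). In TNF-α replicate 1 alone, which has no spread among treated libraries, the log2 differences from NC were 0.61 for MYC, 0.51 for EGLN1 and 0.37 for VHL. They were -0.46 for PIM1, -0.43 for TXNIP and -0.41 for PGM2L1. These 6 were picked from the 64 by a linear model of that library against NC, not by the size of the difference. CA9 (0.65), ANGPTL4 (0.61), SLC2A12 (-0.49) and PC (-0.43) were not among them, and each differed by more than VHL and PGM2L1. Without TNF-α replicate 1, 47 of the 64 passed, against 79.4% of all genes. EGLN1, VHL, PIM1, PGM2L1, CA9, ANGPTL4, SLC2A12 and PC were named after their values were seen.

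The dependence of the group's median on the settings is shown in the plot of medians. With GC and length corrected the median of the 32 genes was 0.14, against 0.06 over all genes, and 24 genes were above 0. With quantile normalization it was 0.0039, against 0.0081 over all genes.

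**Figure D5:**
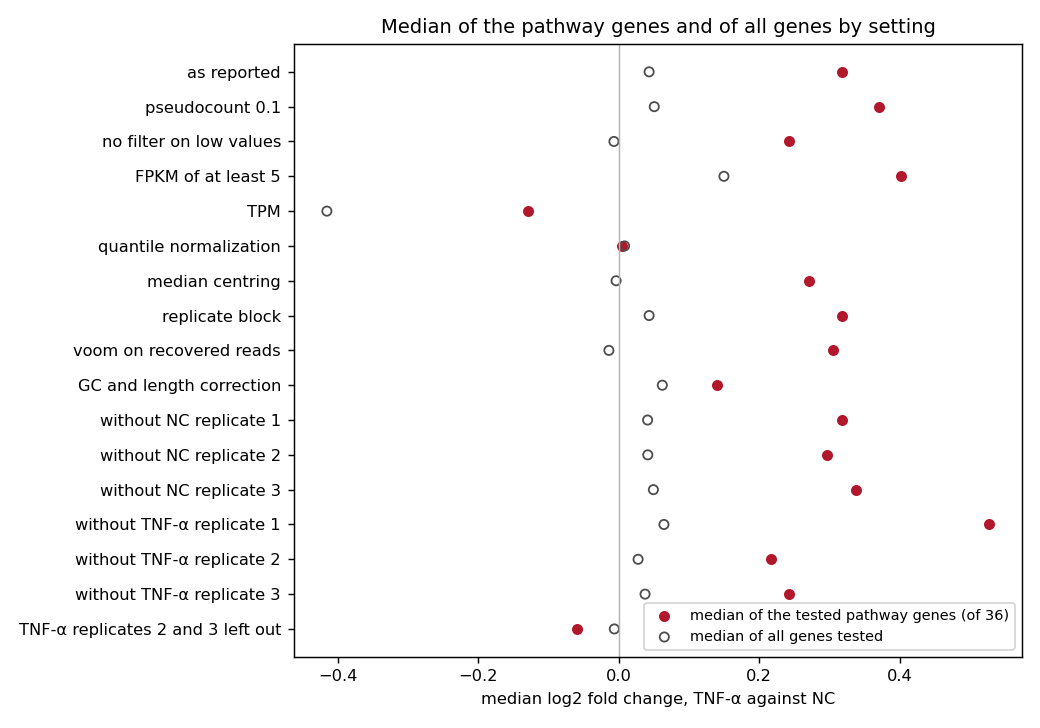
Median log2 fold change (TNF-α against NC) of the tested pathway genes (filled) and of all genes tested (open) as reported and under 16 other settings. The filled point moves from 0.32 to 0.53 without TNF-α replicate 1, to -0.06 when replicates 2 and 3 are left out, and to -0.13 with TPM, where the open point lies at -0.42.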

How the data were processed

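Gene expression was measured by poly(A)-selected RNA-seq (NEBNext Ultra, a kit that does not mark strand) of 3 NC and 3 TNF-α cultures of U251 cells. The authors deposited FPKM per gene and library, not pooled and not log transformed. The submitters' processing notes name HISAT2 2.0.5, StringTie 1.3.3b, featureCounts 1.5.0, DESeq2, edgeR and GATK 3.7 without their roles. The treatment of strand and of reads with several matches was not given in the sources used here. All 58735 genes matched GENCODE release 29 (GRCh38) in name, position and merged exon length. A further 6 columns of per-sample values matched no sample described here and were not used.

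Whole reads were recovered from FPKM and gene length for 100% of the values (tolerance 0.01). Counting intervals were not used, and counting error is covered by the replicate spread alone. The 2 groups were compared on log2(FPKM + 1), so fold changes of low genes are understated, with limma 3.58.1 in R 4.3.3 (lmFit, eBayes with trend, two-sided, Benjamini-Hochberg over all 12136 genes tested). The script was tested on simulated data. Shares were computed and figures drawn with Python 3.11.15, pandas 2.3.3, scipy 1.17.1 and matplotlib 3.10.9.

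The genes and lists were chosen with earlier results of these data known. Genes given in full were those past the threshold, the 2 with the smallest p in each role group, and SLC2A1, HK2, PFKFB3, GAPDH, PKM, LDHA, SLC16A3, PDK1 and TKT. In the other lists they were those past the threshold and HIF1A, MYC and TXNIP, and 1 further gene of the rule is not reported here. Alternatives were a pseudocount of 0.1, no filter or a filter at 5 FPKM, TPM, quantile normalization, median centring, the replicate number as a block, limma-voom, a spline correction for GC content and length (5 degrees of freedom each), and leaving out libraries. Whether replicate numbers pair the libraries across groups could not be decided from these data.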

Additional observations from a re-analysis of the deposited data

How the results depend on the processing

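The median log2 fold change of the tested pathway genes (0.32 as reported) was -0.13 with TPM. The median of all genes was then -0.42, against 0.04 as reported. TPM divides by the summed FPKM of a library, which was highest in TNF-α replicates 2 and 3. The pathway median was 0.0039 with quantile normalization and -0.059 from TNF-α replicate 1 alone. The latter setting was chosen after seeing the data, and the cause of these differences was not tested. Over all genes, 123 passed as reported, against 58 with no filter, 79 at 5 FPKM, 58 with TPM, 185 with quantile normalization, 290 with GC and length corrected, 732 from TNF-α replicate 1 alone, and 10 to 9630 when 1 library was left out. Leaving out 1 library gave 0 to 22 pathway genes higher and 0 to 4 lower, and 0 to 47 of the 64 other pathway genes, with each maximum coming without TNF-α replicate 1. From TNF-α replicate 1 alone, 6 of the 64 passed. With the replicate number as a block, 24 of all genes and 0 pathway genes passed, and SLC2A6 had an adjusted p of 0.0545. Deviations from the group mean had correlations of -0.01, -0.18 and 0.12 between same-numbered libraries and of -0.16 to 0.18 between the others. As TNF-α replicates 2 and 3 stood apart from replicate 1, these values cannot decide whether the numbers pair the libraries. SLC2A6 stayed above 0 in all 16 settings. Signs turned with TPM for HK1 (-0.36), GPI (-0.0083), PFKM (-0.48), PFKP (-0.31), PFKFB4 (-0.36), ALDOA (-0.057), PGK1 (-0.19), PGAM1 (-0.069), ENO2 (-0.085), PDHA1 (-0.16), PGD (-0.096) and TKT (-0.32). They turned with quantile normalization for SLC2A3 (0.043), HK1 (-0.33), PFKM (-0.070), PFKP (-0.28), PFKFB4 (-0.10), GAPDH (-0.19), PGK1 (-0.31), PGAM1 (-0.33), PKM (-0.047), LDHA (0.027), PDK2 (0.088), PDK3 (8.0e-05), PGD (-0.14) and TKT (-0.46), and with GC and length corrected for SLC2A3 (0.13), PFKP (-0.091), ALDOA (-0.18), LDHA (0.24) and PDK3 (0.045). PFKM turned with median centring (-0.040) and limma-voom (-0.058). From TNF-α replicate 1 alone they turned for SLC2A3 (0.099), HK1 (-0.037), HK2 (0.18), GPI (-0.0085), PFKM (-0.059), PFKFB4 (-0.059), ALDOA (-0.078), TPI1 (-0.13), GAPDH (-0.18), PGK1 (-0.068), PGAM1 (-0.022), ENO1 (-0.11), LDHB (-0.14), SLC16A1 (0.0068), SLC16A3 (-0.078), PDHA1 (-0.14), PGD (-0.090), RPE (0.052) and TKT (-0.37). Leaving out 1 library turned the sign within these ranges: SLC2A3 (-0.16 to 0.041), PFKM (-0.027 to 0.055), LDHA (-0.080 to 0.038), PDK2 (-0.14 to 0.068), TKT (-0.027 to 0.46). The difference in the SLC2A3 share ranged from -0.055 to 0.37 percentage points. Each group had 3 libraries, and values of low genes such as ALDOA rest on few reads.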
